A study of Arabidopsis thaliana with 12 samples.

Results

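The folding machinery of the endoplasmic reticulum (ER) was followed through 10 Arabidopsis thaliana genes in rosettes of wild type and of med25-1, a mutant line of MED25, at 3 weeks of age. The 10 genes were taken by identifier from the 33208 features of the deposited table, a set drawn up with earlier results of these data known. They are the luminal HSP70 genes BIP1, BIP2 and BIP3, the HSP90 gene SHD, the calreticulin genes CRT1, CRT2 and CRT3, the calnexin gene CNX1, SDF2, and BZIP60, which encodes a transcription factor and no chaperone. Each genotype was sampled untreated, as the control, and after 3 h in 1% oxygen (hypoxia), which gave 4 groups of 3 biological replicates and 12 libraries. Both genotypes were grown on the same sucrose-containing plates, and messenger RNA was sequenced from a stranded library. The MED25 protein belongs to Mediator, which carries signals from transcription factors to RNA polymerase II. The labels do not give the lesion of med25-1, its genetic background or how many plants made up a replicate.

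Proteins that enter the secretory pathway fold in the ER with the help of chaperones. BiP holds unfolded chains, the HSP90 protein acts on later folding intermediates, and calnexin and calreticulins retain glycoproteins until they are folded. When unfolded proteins accumulate, the membrane sensor IRE1 splices the BZIP60 transcript and the membrane factor bZIP28 is released by cleavage, and both factors raise chaperone transcription, a programme called the unfolded protein response (UPR). BIP1 and BIP2 encode nearly identical proteins made in most tissues, whereas BIP3 is known as a gene with little expression outside ER stress.

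The ER stress element ERSE is the best known promoter element of this response, and the stretches with a match are shown because BIP3 had the widest separation between genotypes. The 500 bases before the annotated start of each gene were searched on both strands of TAIR10, for the 10 genes and for 27443 protein-coding genes in all. ERSE, spelled CCAAT and, after 10 bases of any kind, CACG, was present in 3 of the 10 windows and in 0.958% of all windows. BIP3 held a pair of matches, and SHD and CRT1 held 1 each. The 200 bases upstream of BIP3 (chr1:2931851-2932050, minus strand) are given first, then each match with its flanks, 5′ to 3′ in the direction of the gene. Capitals mark the CCAAT and CACG parts of ERSE, which read as ATTGG and CGTG where the match lies on the opposite strand.
BIP3 upstream: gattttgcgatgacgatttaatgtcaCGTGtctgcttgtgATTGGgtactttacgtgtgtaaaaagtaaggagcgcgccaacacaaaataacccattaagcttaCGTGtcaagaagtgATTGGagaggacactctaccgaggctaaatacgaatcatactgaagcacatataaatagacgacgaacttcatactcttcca
SHD (chr4:12556059-12556088, minus strand): accttgctCCAATacaaaactacCACGtgg
CRT1 (chr1:21092751-21092785, minus strand): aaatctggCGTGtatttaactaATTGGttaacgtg

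The BIP3 matches covered bases 174 to 156 and 96 to 78 before the start, the CRT1 match bases 68 to 50 and the SHD match bases 22 to 4. ERSE-II, spelled ATTGG and, after 1 base of any kind, CCACG, was found in 0 of the 10 windows and in 0.0875% of all windows. UPRE-III, spelled TCATCG, was found in 3 of the 10 (BIP3, SHD and CRT3) and in 14.1% of all windows. The short core CCACG was found in 5 of the 10 (BIP2, SHD, CRT1, CRT2 and CNX1) and in 25.2% of all windows. The core ACGTG was found in 8 of the 10, all but BIP1 and BIP2, and in 35.5% of all windows. At BIP3 the ACGTG matches overlapped both ERSE matches, at SHD CCACG and ACGTG overlapped it, and at CRT1 neither did. These are matches of letters within a fixed window and say nothing of binding.

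Library totals ran from 7170796 to 20501572 gene reads. ADH1, the alcohol dehydrogenase of fermentation and a standard hypoxia marker, stood at 2.87 ± 1.06 counts scaled to library size (CPM, with SD, n = 3) in wild-type controls and 175 ± 62.2 under hypoxia, a log2 change of 5.90 ± 0.36 (SE, edgeR adjusted p = 1.7e-06). MED25 stood at 34.1 ± 1.23 CPM in wild-type and 24.9 ± 5.56 in med25-1 controls (log2 -0.45 ± 0.20, edgeR adjusted p = 0.133), and at 32.7 ± 6.0 and 17.0 ± 3.92 under hypoxia (log2 -0.96 ± 0.20, edgeR adjusted p = 0.0066). The summed level of 3 leaf genes was 46375 to 50289 CPM in the wild-type and 38217 to 42271 in the med25-1 controls, and 45390 to 47215 and 25765 to 41369 under hypoxia. It was lower in every med25-1 library than in every wild-type library of the same treatment, with 0 of the 3 genes called in either comparison, 1 at an unadjusted p under 0.05 in the controls and 2 under hypoxia, and its part in the differences below was not tested. The sum of 8 root markers did not pass 0.579 CPM. The shallowest library, med25-1 hypoxia replicate 3, stood apart. In it 6.42% of genes lay at least 2-fold above the mean of the other libraries of its group, against 0.257% and 1.75% in those libraries. Among the controls, med25-1 replicate 2 had the highest such share, 1.41%. Both libraries were the highest of their group for all 10 genes, so the comparisons of these genes are also given without one or both. The share of med25-1 control replicate 2 was below the 1.75% of a med25-1 hypoxia library and near the 0.995% of med25-1 control replicate 3. It is counted as standing apart because of these same 10 genes, so calls made without it are a description and no support. Their part in the differences was not tested. In these whole rosettes, a change in the share of a cell type cannot be told apart from a change in RNA per cell.

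The first question was how the 10 genes differed between genotypes, and in both treatments every med25-1 library lay above every wild-type library for each of them. This held for 12.6% of the 18212 genes tested, and for 23.1% in the controls and 17.3% under hypoxia taken singly. A gene is called changed where the Benjamini-Hochberg adjusted p of edgeR's quasi-likelihood test over all tested genes was under 0.05. Under hypoxia all 9 genes other than BIP3 were called higher in med25-1, against 12% of all genes called higher, with log2 differences from 1.57 for BZIP60 to 3.30 for BIP2. Under control conditions 4 of these 9 were called higher (BIP2, CRT3, SDF2 and BZIP60), against 8.98% of all genes. BIP3 was also called in both, which makes 10 and 5, but is left out of these counts because it entered the test through its med25-1 reads. At an unadjusted p under 0.05 6 of the 9 passed in the controls and 9 of 9 under hypoxia, against 31.9% and 36.4% of all genes. The median log2 difference of the 9 genes was 2.39 under hypoxia and 1.11 under control conditions, and that of all genes was -0.05 and -0.02.

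**Figure D1:**
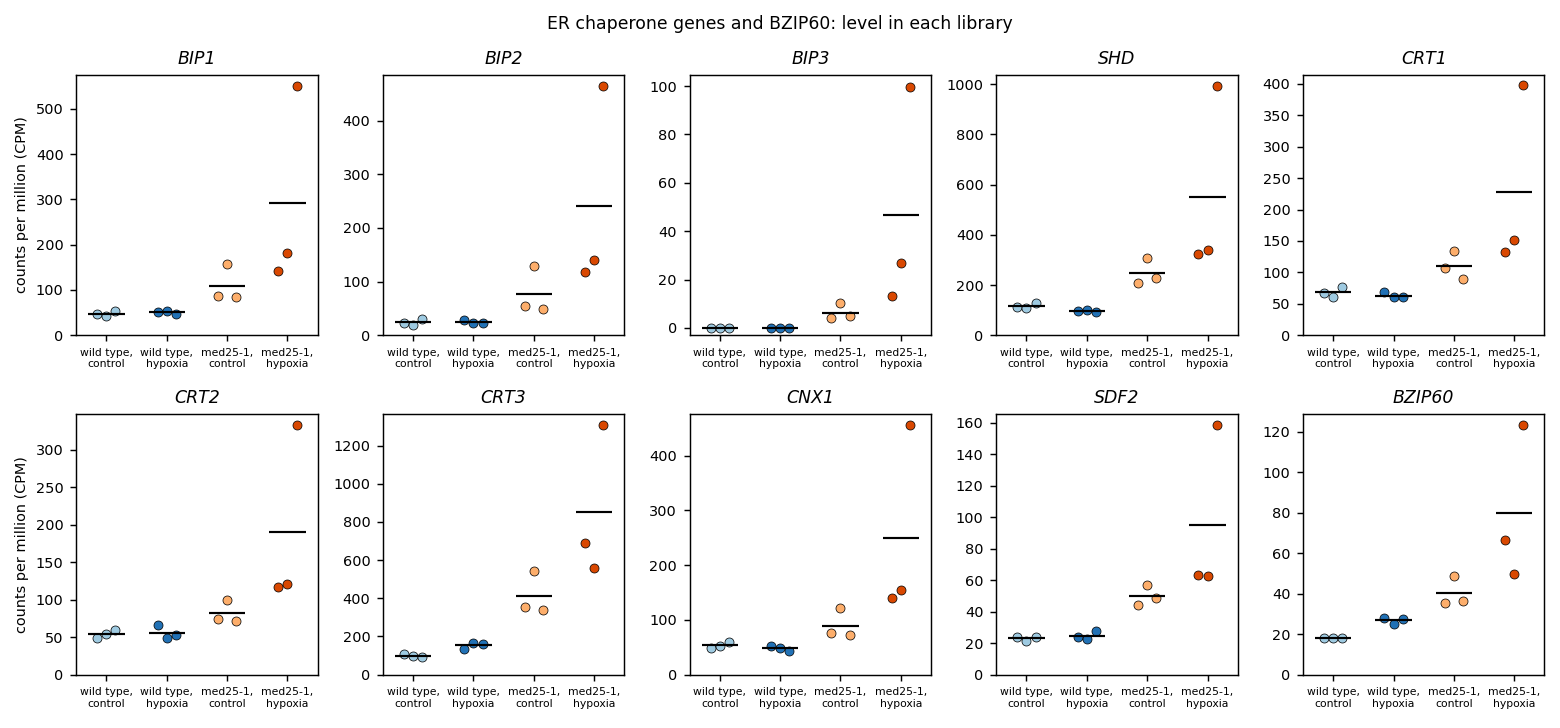
Level of each of the 10 genes in CPM (vertical axes, linear, one scale per gene) in the 12 libraries, by group, with points for replicates 1 to 3 from left to right and bars for group means. The 3 med25-1 hypoxia libraries lie above the wild-type hypoxia libraries for every gene, and replicate 3 of med25-1 hypoxia is the highest library of each plot.

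BIP1 (AT5G28540, chromosome 5, 10540123 to 10543558, minus strand) read 46.4, 42.6 and 53.0 CPM in wild-type controls and 87.4, 157 and 85.0 in med25-1 controls. Under hypoxia it read 51.6, 54.0 and 47.3 in wild type and 142, 181 and 550.2 in med25-1. The genotypes did not overlap in either treatment, and the med25-1 libraries were also the more scattered. The log2 difference was 1.21 ± 0.42 in the controls (edgeR adjusted p = 0.0684, not called) and 2.51 ± 0.44 in the hypoxia libraries (edgeR adjusted p = 0.0024).

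BIP2 (AT5G42020, chromosome 5, 16807342 to 16810693, minus strand) read 23.6, 18.3 and 29.8 CPM in wild-type controls and 53.9, 128 and 49.2 in med25-1 controls. Under hypoxia the readings were 28.6, 22.3 and 22.3 in wild type and 118, 140.3 and 464 in med25-1. The groups were again apart, by more than for BIP1. The log2 difference was 1.68 ± 0.50 in the controls (edgeR adjusted p = 0.039) and 3.30 ± 0.53 in the hypoxia libraries (edgeR adjusted p = 0.00154). The control call was lost without any 1 of 6 libraries, namely med25-1 control replicate 2, the 3 wild-type controls and replicates 2 and 3 of wild-type hypoxia, and the value was 1.11 without med25-1 control replicate 2. Reads that could come from more than 1 locus made up 10.2% of the gene reads of BIP1 and 10.9% of those of BIP2, and were left out of these counts. For the other 8 genes that share was at most 0.0105%.

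BIP3 (AT1G09080, chromosome 1, 2929217 to 2931850, minus strand) was the gene nearest to zero in wild type. The wild-type controls held 2 reads in all and the wild-type hypoxia libraries also 2. The med25-1 controls held 317 reads, at 4.04, 10.1 and 4.90 CPM, and the med25-1 hypoxia libraries 1457 reads, at 13.3, 26.9 and 99.8 CPM. BIP3 therefore passed the filter on low counts through the med25-1 groups, where it was high, so its test is no support for a difference and its values are a description. The ratio of the summed reads, med25-1 over wild type and corrected for depth, was 133 under control conditions (exact 95% counting interval 36.6 to 1104) and 713 under hypoxia (197 to 5889). It was 420.2 (116 to 3477) under hypoxia without med25-1 hypoxia replicate 3. These intervals cover counting error only. The fitted fold of a gene with so few wild-type reads depends on the prior count and is not used as a size.

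SHD (AT4G24190, chromosome 4, 12551552 to 12556058, minus strand), named after the SHEPHERD protein needed for folding of the CLAVATA receptors, read 112, 110.3 and 128 CPM in wild-type controls and 207, 308 and 229.8 in med25-1 controls. Under hypoxia it read 96.8, 102 and 93.2 in wild type and 323, 341 and 994 in med25-1. All med25-1 libraries were higher, with replicate 3 of the hypoxia group far above the rest. The log2 difference was 1.09 ± 0.35 in the controls (edgeR adjusted p = 0.0537, not called) and 2.51 ± 0.37 in the hypoxia libraries (edgeR adjusted p = 9.4e-04).

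CNX1 (AT5G61790, chromosome 5, 24827063 to 24829900, minus strand), the membrane-bound lectin chaperone, read 49.0, 52.3 and 58.6 CPM in wild-type and 75.5, 121 and 71.6 in med25-1 controls. Under hypoxia it read 52.2, 47.7 and 43.1 in wild type and 141, 155 and 456 in med25-1. The log2 difference was 0.74 ± 0.38 in the controls (edgeR adjusted p = 0.198, not called) and 2.39 ± 0.39 in the hypoxia libraries (edgeR adjusted p = 0.00177). The soluble calreticulins CRT1 (AT1G56340, chromosome 1, 21089565 to 21092709, minus strand) and CRT2 (AT1G09210, chromosome 1, 2972638 to 2977002, minus strand) also had every med25-1 library above every wild-type library of the same treatment. CRT1 spanned 61.5 to 76.3 CPM in wild-type and 90.0 to 135 in med25-1 controls, and 60.1 to 68.1 against 133 to 398 under hypoxia. CRT2 spanned 49.3 to 59.2 and 70.9 to 100.2 CPM in the controls, and 48.7 to 65.96 against 117 to 334 under hypoxia. Neither was called under control conditions (log2 0.70 ± 0.34 and 0.60 ± 0.34, edgeR adjusted p = 0.173 and 0.248). Both were called under hypoxia (log2 1.85 ± 0.34 and 1.77 ± 0.35, edgeR adjusted p = 0.00351 and 0.00462).

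CRT3 (AT1G08450, chromosome 1, 2667798 to 2671957, minus strand) is the plant-specific calreticulin known for retaining a defective brassinosteroid receptor and for the maturation of the immune receptor EFR. It read 106, 96.6 and 90.4 CPM in wild-type controls and 352, 545 and 337 in med25-1 controls. Under hypoxia it read 136, 166 and 162 in wild type and 690.3, 559 and 1306 in med25-1. The lowest med25-1 library exceeded the highest wild-type library by more than the whole wild-type range in each treatment. The log2 difference was 2.08 ± 0.29 in the controls (edgeR adjusted p = 8.5e-04) and 2.46 ± 0.30 in the hypoxia libraries (edgeR adjusted p = 2.9e-04), and both calls held without any 1 library.

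SDF2 (AT2G25110, chromosome 2, 10684118 to 10686347, plus strand), a luminal protein that works with ERDJ3B and BiP, spanned 21.5 to 23.9 CPM in wild-type and 44.2 to 56.6 in med25-1 controls, and 22.4 to 27.5 against 62.4 to 159 under hypoxia. The log2 difference was 1.11 ± 0.30 (edgeR adjusted p = 0.0264) and 1.94 ± 0.30 (edgeR adjusted p = 0.00136). The control call was lost without any 1 of the 3 wild-type controls or of med25-1 control replicates 2 and 3, at log2 values of 1.01 to 1.19 over all single omissions. BZIP60 (AT1G42990, chromosome 1, 16135723 to 16137463, minus strand) read 17.9, 18.0 and 18.0 CPM in wild-type controls and 35.5, 48.8 and 36.5 in med25-1 controls. Under hypoxia it read 27.7, 25.2 and 27.2 in wild type and 66.5, 49.5 and 124 in med25-1. The wild-type controls were nearly equal and every other group lay above them. The log2 difference between genotypes was 1.16 ± 0.27 in the controls (edgeR adjusted p = 0.0133) and 1.57 ± 0.27 in the hypoxia libraries (edgeR adjusted p = 0.00214), and the control call was lost without wild-type control replicate 3. Gene reads do not separate the spliced from the unspliced BZIP60 transcript.

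Without med25-1 hypoxia replicate 3, all 9 genes other than BIP3 were called higher in med25-1 in both treatments. Over all genes there were then 5027 calls in either direction under control conditions and 2710 under hypoxia. The control differences kept their log2 values within 0.01, since that library enters them through the shared spread alone, and their standard errors were smaller, for BIP1 0.22 in place of 0.42. The differences under hypoxia were then smaller, with log2 values of 1.67 for BIP1, 2.40 for BIP2, 1.77 for SHD, 1.18 for CRT1, 1.09 for CRT2, 1.63 for CNX1, 2.01 for CRT3, 1.36 for SDF2 and 1.12 for BZIP60. Without both this library and med25-1 control replicate 2, these 9 were again called in each treatment, with 4019 and 2812 calls over all genes. Without med25-1 control replicate 2 alone, all 9 were called under hypoxia. In the controls CRT3 and BZIP60 alone of the 9 were then called (edgeR adjusted p = 0.00305 and 0.0493). The others ran from log2 0.43 for CRT2 to 1.11 for BIP2 there, when 1861 of all genes were called. In the authors' deposited table, whose test on proportions is another than the one used here, 6 of the 10 passed an FDR corrected p of 0.05 between genotypes under control conditions and 0 under hypoxia, against 20.2% and 10.2% of all features. In the authors' deposited table the signed fold of CRT3 under hypoxia was 6.39 with an FDR corrected p of 0.0927.

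**Figure D2:**
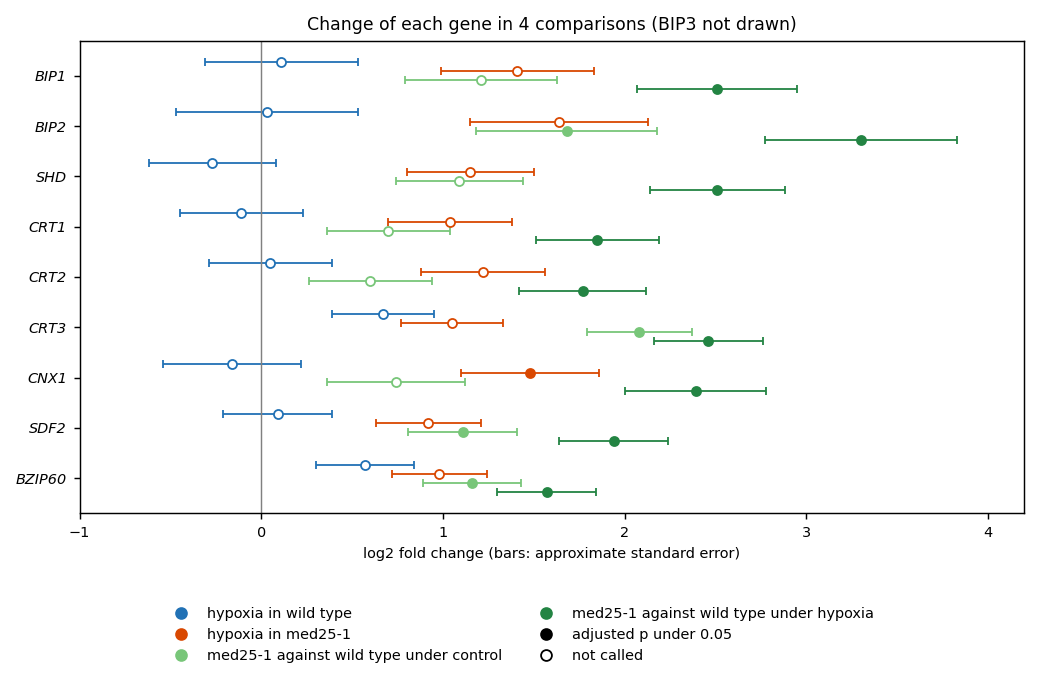
Log2 fold change (horizontal axis) of 9 genes in 4 comparisons, with approximate standard errors, filled where the adjusted p was under 0.05. The dark green points (med25-1 against wild type under hypoxia) are all filled and run from 1.57 to 3.30, while the blue points (hypoxia in wild type) are all open and run from -0.27 to 0.67, and BIP3 is left out because its wild-type groups hold 2 reads each.

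The second question was how the genes responded to hypoxia within each genotype. In wild type 0 of 10 were called by edgeR, against 6.48% of all genes (3.05% higher), and 0 by DESeq2. At an unadjusted p under 0.05 there was 1, CRT3, against 18.2% of all genes. CRT3 and BZIP60 were the pair in which all wild-type hypoxia libraries exceeded all wild-type controls, which held for 16.3% of genes. Their log2 differences were 0.67 ± 0.28 and 0.57 ± 0.27 (edgeR adjusted p = 0.229 and 0.288). Both were called without med25-1 hypoxia replicate 3 (edgeR adjusted p = 0.0361 and 0.0278), at the same log2 values, with smaller standard errors. SHD had all hypoxia libraries below all controls, at -0.27 ± 0.35 (edgeR adjusted p = 0.78). The share of all genes with that order was not computed, so nothing is read from it. In the authors' deposited table this comparison passed for 3 of the 10, with signed folds of 1.54 for CRT3, 1.498 for BZIP60 and -1.22 for SHD, against 12.05% of all features.

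In med25-1 the log2 difference between hypoxia and control was above 0 for all 10, with a median of 1.18 against 0.02 for all genes. BIP3 (2.87 ± 0.61, edgeR adjusted p = 0.0199) and CNX1 (1.48 ± 0.38, edgeR adjusted p = 0.0448) were called higher, 2 of 10 against 5.28% of all genes called and 1.88% called higher. All med25-1 hypoxia libraries exceeded all med25-1 controls for 7 of the 10 (BIP3, SHD, CRT2, CRT3, CNX1, SDF2 and BZIP60), against 9.36% of all genes. The other 8 ran from 0.92 for SDF2 to 1.64 for BIP2, with edgeR adjusted p between 0.051 and 0.0922. At an unadjusted p under 0.05 all 10 passed, against 23.9% of genes in either direction, and DESeq2 called all 10. The number of calls in this comparison changed with the libraries used, and not only with those that stand apart. It was 9 without med25-1 hypoxia replicate 1, 10 without med25-1 hypoxia replicate 2 and 0 without med25-1 control replicate 1 or 3. Without med25-1 hypoxia replicate 3 the call of BIP3 held at 1.67 (edgeR adjusted p = 0.0282) and that of CNX1 did not, at 0.73 (edgeR adjusted p = 0.061). Without med25-1 control replicate 2 there were 6 calls, and without both libraries 10, with log2 values from 0.58 for CRT1 to 2.21 for BIP3. The call of BIP3 was lost without med25-1 control replicate 1 or 3. The call of CNX1 was lost without any 1 of 9 libraries, which are all except med25-1 control replicate 2 and med25-1 hypoxia replicates 1 and 2, and under the fit with the replicate number as a block, which left 1 call. In the authors' deposited table this comparison passed for 0 of the 10, against 4.75% of all features.

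The interaction, the hypoxia change in med25-1 minus that in wild type, was called for 0 of the 10 by edgeR and for 0.0% of all genes, and DESeq2 called 0 of the 10. The 9 genes other than BIP3 had values above 0, which ran from 0.38 ± 0.40 for CRT3 to 1.65 ± 0.53 for CNX1 (edgeR adjusted p = 0.959 and 0.929). At an unadjusted p under 0.05 there were 6 (CNX1, SHD, CRT2, CRT1, BIP2 and BIP1), against 5.0% of all genes. Without med25-1 hypoxia replicate 3 the values were smaller, at 0.89 for CNX1, 0.68 for SHD and 0.72 for BIP2, and those of CRT3 and BZIP60 turned to -0.07 and -0.04. A different response of the genotypes to hypoxia was therefore not resolved for any of these genes at this spread.

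Levels of different genes were compared per length, as the authors' RPKM. Genes are said to overlap where their ranges over the libraries of a group do, which leaves out that they were measured in the same libraries. Only the pairs given with values per library below were also compared within libraries. In wild-type controls CRT3 had the highest level at 53.8 ± 3.67 RPKM (SD, n = 3), above SHD at 35.5 ± 3.01 and CRT1 at 33.8 ± 3.67, which overlapped. CRT2 and CNX1 followed at 22.6 ± 2.44 and 22.5 ± 2.37 RPKM and overlapped. BIP1 at 17.1 ± 1.78, SDF2 at 14.3 ± 0.447, BZIP60 at 13.0 ± 0.410 and BIP2 at 9.12 ± 1.92 RPKM each lay apart from the next, and BIP3 came last at 0.0181 ± 0.0162. In med25-1 controls CRT3 stood at 233 ± 67.8 RPKM, clear of all others, and the level of BIP3 was 2.75 ± 1.39. From SHD down to BZIP60, at 77.3 and 29.6 RPKM, the range of every gene overlapped that of the next one. Within each of these libraries SHD lay above CRT1, at 65.5, 96.7 and 69.6 against 55.6, 69.3 and 44.7 RPKM. Under hypoxia in med25-1 CRT3 again came first at 504 ± 244 RPKM and the ranges of all neighbours overlapped. Within each library of this group CRT3 lay above SHD, at 404, 326 and 782 against 104, 109 and 329 RPKM. Without replicate 3 of that group CRT3 spanned 326 to 404 and SHD 104 to 109 RPKM, and both lay clear of the other genes. Without replicate 2 of the med25-1 controls CRT3 spanned 186 to 203 RPKM there.

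Within the BiP and calreticulin families the mixture of transcripts was examined as well. The BIP2 share of BIP1 and BIP2 reads was 33.7, 30.1 and 35.9% in wild-type controls and 35.6, 29.2 and 32.0% in wild-type hypoxia libraries. It was 38.1, 44.9 and 36.7% in med25-1 controls and 45.4, 43.6 and 45.7% in med25-1 hypoxia libraries. Every med25-1 library lay above every wild-type library, with a mean difference of 9.65 percentage points. The CRT3 share of calreticulin reads was 47.7, 45.6 and 40.0% in wild-type controls and 50.4, 60.2 and 59.0% in wild-type hypoxia libraries. It was 65.9, 69.9 and 67.7% in med25-1 controls and 73.4, 67.1 and 64.1% in med25-1 hypoxia libraries. The genotypes again did not overlap, with a mean difference of 17.5 percentage points. These shares were chosen after their values were seen and are given as a description, with no test. The differences ran from 8.40 to 10.5 and from 16.0 to 18.6 points when any 1 library was left out. Replicate 3 of med25-1 hypoxia, the highest of its group for every single gene, lay close to its group in the BIP2 share and was the lowest of its group in the CRT3 share.

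**Figure D3:**
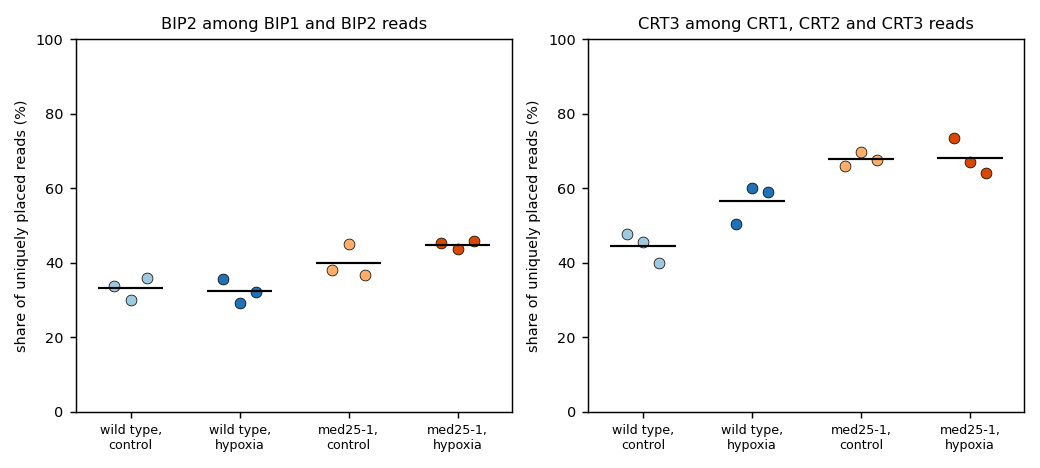
Share (vertical axes, percent of uniquely placed reads) of BIP2 among BIP1 and BIP2 reads and of CRT3 among calreticulin reads in the 12 libraries, with points for replicates 1 to 3 and bars for group means. All 6 med25-1 libraries lie above all 6 wild-type libraries in both plots.

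The 10 genes varied together over the 12 libraries. The Pearson correlation of each gene's log2 CPM with the mean of the other 9 was 0.957 to 0.991, a description over libraries that include the genotype difference and the 2 libraries that stand apart, and 0.914 to 0.986 over the 10 libraries without those 2. The centred mean of the 10 genes was -1.21 to -0.90 in the wild-type libraries, 0.21, 0.89 and 0.20 in the med25-1 controls and 1.04, 1.18 and 2.68 in the med25-1 hypoxia libraries, on the log2 scale. BIP3 is part of this mean, of the means of the other 9 above and of the profile used below. Its wild-type log2 values depend on the prior count, so the distance between genotypes in this mean is not used as a size. Among 11356 genes with a mean of at least 10 CPM, the 6 outside the set with the most similar profile were ERDJ3B (r = 0.996), the disulfide isomerase gene PDIL1-2 (0.995), the nucleotide sugar transporter gene UTR3 (0.992), the tetraspanin gene TET8 (0.990), AT5G43910 (0.990) and AT1G29240 (0.989). Without the 2 libraries these 6 had values of 0.979 to 0.992.

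Other genes of the secretory pathway were read from 5 lists with 49 tested genes. Between genotypes 14 of them were called under control conditions and 29 under hypoxia, which is 28.6% and 59.2%, against 17.1% and 21.6% of all genes, and 23 and 27 were called without the 2 libraries that stand apart. The 14 of the controls became 8 without med25-1 control replicate 2 alone and 28 without med25-1 hypoxia replicate 3 alone. Of 18 ER oxidoreductases and co-chaperones, 9 were called higher and 0 lower in med25-1 under control conditions, and 14 higher and 0 lower under hypoxia. Of all genes 8.98% and 12% were called higher. The median log2 differences of the 18 were 0.92 and 1.73. With med25-1 hypoxia replicate 3 left out 13 and 14 were called. Over all single omissions these counts ran from 4 to 13 under control conditions and from 13 to 14 under hypoxia. PDIL2-2, a protein disulfide isomerase gene, had levels of 1.58 ± 0.372 and 1.96 ± 1.13 CPM in the wild type, control and hypoxia in turn, against 13.3 ± 6.61 and 41.5 ± 35.4 in med25-1 (log2 difference 3.07 ± 0.63 and 4.38 ± 0.63, edgeR adjusted p = 0.00729 and 8.0e-04). Under hypoxia that difference was 3.42 without med25-1 hypoxia replicate 3 and 4.97 without wild-type hypoxia replicate 1. ERDJ3B, the partner of SDF2, stood at 24.4 ± 3.11 CPM in wild type and 189 ± 129 in med25-1 under hypoxia (log2 2.95 ± 0.41, edgeR adjusted p = 6.3e-04, and 2.24 without med25-1 hypoxia replicate 3). PDIL1-4, another disulfide isomerase gene, was higher in the med25-1 controls (log2 0.89 ± 0.15, edgeR adjusted p = 0.00259). Without both libraries that stand apart PDIL2-2 differed by 2.60 and 3.47, ERDJ3B by 2.29 under hypoxia and PDIL1-4 by 0.85 in the controls, all called. Calls without both libraries are a description and no support.

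Of 6 genes of the translocon and of ER export, 2 were called higher in med25-1 under control conditions and 4 under hypoxia, with 0 lower. Of all genes 8.98% and 12% were called higher. Without med25-1 hypoxia replicate 3, 4 and 3 of the 6 were called. SEC61B2, a gene for the beta subunit of the SEC61 channel, had levels of 0.703 ± 0.151 and 1.87 ± 0.455 CPM in the wild type, against 7.68 ± 3.30 and 29.8 ± 16.7 in med25-1, control and hypoxia in turn (log2 difference 3.45 ± 0.50 and 3.98 ± 0.45, edgeR adjusted p = 0.00101 and 2.0e-04). SEC61B3, another gene for that subunit, was higher by 1.94 ± 0.24 and 1.63 ± 0.24 (edgeR adjusted p = 3.4e-04 and 8.7e-04). Of 12 UPR sensors and transcription factors 10 were tested, of which 2 were higher and 1 lower under control conditions and 5 higher and 1 lower under hypoxia. Without med25-1 hypoxia replicate 3 the number called in either direction was 7 and 6. Over all single omissions it ran from 2 to 7 under control conditions and from 5 to 6 under hypoxia. Of all genes 17.1% and 21.6% were called in either direction with all 12 libraries. NAC089, a membrane-tethered factor, was higher in both treatments (1.11 ± 0.13 and 0.81 ± 0.13, edgeR adjusted p = 2.9e-04 and 0.00187), and NAC062, also membrane-tethered, under hypoxia (1.55 ± 0.27, edgeR adjusted p = 0.00226). BAG7, an ER-resident co-chaperone, was lower under control conditions (-0.66 ± 0.15, edgeR adjusted p = 0.0109). Without both libraries that stand apart SEC61B2 differed by 3.06 and 3.54, SEC61B3 by 1.93 and 1.49, NAC089 by 1.15 and 0.73, NAC062 by 1.17 under hypoxia and BAG7 by -0.63 in the controls, all called. These calls too are a description and no support.

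The calnexin cycle and ER-associated degradation lists had smaller medians, 0.18 and 0.21 under control conditions and 0.41 and 0.22 under hypoxia on the log2 scale. Of 5 calnexin cycle genes 0 were called under control conditions by edgeR, with 1 at an unadjusted p under 0.05, and 3 were higher and 1 lower under hypoxia, while 1 was called in each treatment without med25-1 hypoxia replicate 3. CNX2, the second calnexin gene, was at 26.9 ± 2.88 CPM in wild type and 59.4 ± 25.9 in med25-1 under hypoxia (log2 1.13 ± 0.24, edgeR adjusted p = 0.00647). EBS1, the glucosyltransferase that marks unfolded glycoproteins, differed by 0.97 ± 0.27 (edgeR adjusted p = 0.0247), and its call was lost without med25-1 hypoxia replicate 3, where it was 0.50, or wild-type hypoxia replicate 1 or 3. Of 10 degradation genes 0 were called under control conditions, with 1 at an unadjusted p under 0.05, and 1 under hypoxia, the ubiquitin ligase gene HRD1B (1.81 ± 0.30, edgeR adjusted p = 0.0018). Against 12% of all genes called higher under hypoxia, the 1 of 10 degradation genes is near the background with all 12 libraries. At an unadjusted p under 0.05 5 of the 10 passed under hypoxia, against 36.4% of all genes. Without med25-1 hypoxia replicate 3 the degradation genes called were 3 under control conditions and 1 under hypoxia. Over all single omissions these counts ran from 0 to 3 and from 1 to 5, and DESeq2 called 3 under hypoxia. Without both libraries that stand apart CNX2 differed by 0.78, EBS1 by 0.55 and HRD1B by 1.40 under hypoxia, all called, which is again a description and no support.

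**Figure D4:**
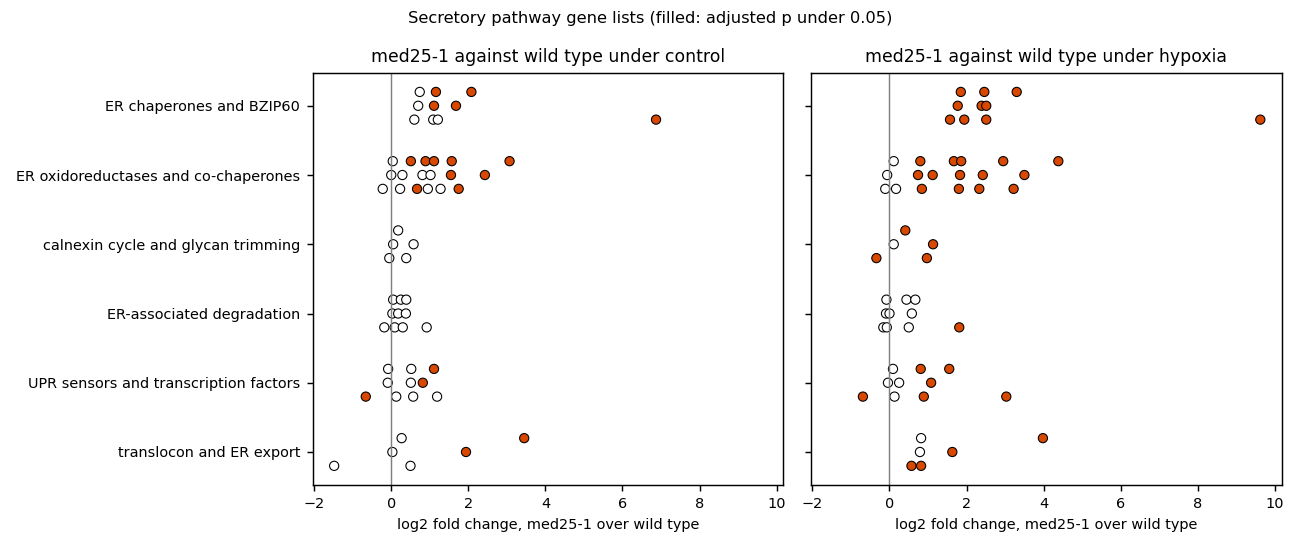
Log2 difference of med25-1 over wild type (horizontal axes) for each tested gene of the 10-gene set and of 5 secretory pathway lists, under control conditions and under hypoxia, filled where the adjusted p was under 0.05. In the top 2 rows 5 of 10 and 9 of 18 genes were called higher under control conditions, and 10 of 10 and 14 of 18 under hypoxia. The counts of the first row include BIP3, whose test is no support for a difference. Under hypoxia 3 of 5 calnexin cycle, 5 of 10 UPR and 4 of 6 translocon genes were also called higher. In the calnexin cycle and UPR rows 1 gene each was called lower there. Of all genes 8.98% and 12% were called higher. The point near 9.6 is the fitted value of BIP3, which depends on the prior count.

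Between hypoxia and control 3 of the 49 list genes were called in wild type and 6 in med25-1, which is 6.12% and 12.2%, against 6.48% and 5.28% of all genes. In med25-1 this count was 20 with DESeq2, 0 with only the groups compared and 19 without both libraries that stand apart. Without med25-1 hypoxia replicate 1, 2 or 3 alone it was 15, 21 and 5. It was 14 without med25-1 control replicate 2 alone and 0 without med25-1 control replicate 1 or 3. In wild type ERO2, an ER oxidase gene, was higher (1.28 ± 0.15, edgeR adjusted p = 2.9e-04), and PDIL1-6 (-0.64 ± 0.12, edgeR adjusted p = 0.00862) and the glucosidase subunit gene RSW3 (-0.53 ± 0.15, edgeR adjusted p = 0.0498) were lower. The call of RSW3 was lost in 9 of 12 single omissions, all but those of wild-type hypoxia replicate 2 and med25-1 hypoxia replicates 1 and 3, with log2 values of -0.65 to -0.44. Of the 6 called in med25-1, 5 were higher and 1 was lower, PDIL1-6 (-0.46 ± 0.12, edgeR adjusted p = 0.0479). The called genes with the smallest p of each list there were ERO2 (0.66 ± 0.14, edgeR adjusted p = 0.0221), ERDJ3A, another BiP co-chaperone gene (1.87 ± 0.44, edgeR adjusted p = 0.0331), SEC61B2 (1.95 ± 0.39, edgeR adjusted p = 0.0151) and TIN1, a gene induced by the ER stressor tunicamycin (2.36 ± 0.52, edgeR adjusted p = 0.0237). Each of these 4 calls was lost without med25-1 control replicate 1 or 3. Without med25-1 hypoxia replicate 3 the value of TIN1 was 1.37, and that of ERDJ3A was 1.19 and no longer called. The omission of replicate 2 or 3 of the wild-type controls, or of replicate 3 of wild-type hypoxia, also ended the call of ERDJ3A. The interaction was called for 0 genes of the 5 lists by edgeR. At an unadjusted p under 0.05 there were 4 of 18 oxidoreductases and co-chaperones, 1 of 10 UPR genes and 1 of 6 translocon genes, against 5.0% of all genes.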

How the data were processed

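Poly(A) RNA of 12 rosette libraries was sequenced, per the labels' protocols. The authors deposited, per the file headers, counts of uniquely placed and total gene reads (with exon and intron reads), RPKM from total exon reads, a quantile-normalized signal (not tested), and for each comparison a p-value and a score (a signed fold change) from a test on proportions. No mapping or counting tool is named in the sources used here. TAIR10 was the build, per the submitters' processing notes, and all 10 genes had the same coordinates in the TAIR10.1 annotation. Of 293 columns, 184 were not used.

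Counts of uniquely placed gene reads were filtered by filterByExpr (18212 genes left), scaled by TMM and fitted in edgeR 4.0.16 (R 4.3.3) with 1 mean per group over all 12 libraries, 8 residual degrees of freedom and a common dispersion of 0.0436. P-values are two-sided and adjusted over all tested genes within a comparison. CPM used TMM library sizes. The approximate SE was taken as the log2 value over the square root of F. The code was tested on simulated data. Alternatives used RLE factors, DESeq2 1.42.0, limma 3.58.1 voom weights, no filter, total reads, a replicate block, only the groups compared, and omission of each library. Leaving out both libraries that stand apart, and the family shares, were added after seeing the data. Replicates differed by more than sampling noise (chi-square per degree of freedom 4.17 to 81.9). Genes named from the lists were up to 2 called per list and comparison with the smallest p, and similar profiles were the 6 highest correlations. The members and lists were chosen with earlier results of these data known. Strand use in counting is not given, and no other annotated feature overlaps any of the 10 genes.

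Replicate numbers were checked for pairing by the correlation of same-numbered libraries' deviations. All 3 exceeded 0.1 for the genotypes under hypoxia (0.49, 0.114 and 0.208), the mark set for pairing, and not in the other comparisons. The values printed come from the fit without a block, so their SE and adjusted p do not take up this pairing. The fit with the replicate block also called all 10 genes there, BIP3 included, and 27 of the 49 list genes in place of 29.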

Additional observations from a re-analysis of the deposited data

How the results depend on the processing

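Under hypoxia all 10 genes were called higher in med25-1 under each of 12 single omissions and 8 other settings, among them the replicate block. This count and those below include BIP3, whose test is no support for a difference between genotypes. In the remaining comparisons the number of the 10 genes called depended on the setting. For hypoxia in wild type it was 0, against 2 (CRT3 and BZIP60) with only the groups compared, with voom weights and with both libraries that stand apart left out, and 0 to 2 in single omissions. For hypoxia in med25-1 it was 2, against 5 without the filter on low counts, 1 with the replicate block, 0 with only the groups compared, 10 with DESeq2 and 10 with both libraries left out, and 0 to 10 in single omissions. For the genotypes under control conditions it was 5, against 10 with only the groups compared, with voom weights and with both libraries left out, and 2 to 10 in single omissions. The replicate block gave 6 there and 0 for hypoxia in wild type and the interaction. The interaction stayed at 0 in every setting run.

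Uncalled values changed sign. For hypoxia in wild type, BIP2 gave -0.05 with voom and -0.13 and -0.10 without wild-type control 2 or hypoxia 1 (-0.13 to 0.22 over single omissions). CRT2 gave -0.06 with voom and -0.01 and -0.09 without wild-type control 1 or hypoxia 1 (-0.09 to 0.13). BIP3 gave -0.27, -0.22 and -0.20 without wild-type control 2, hypoxia 1 or hypoxia 3 (-0.27 to 0.56), fitted values on 2 reads per group that are not sizes. The interaction of CRT3 gave -0.03 with voom and -0.07 without med25-1 hypoxia 3, where BZIP60 gave -0.04 (-0.07 to 0.64 and -0.04 to 0.66). The cause was not tested.

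Over all genes, hypoxia in wild type gave 1181 calls, against 2408 with only the groups compared, 5461 with voom, 2136 with both libraries left out and 559 to 1933 in single omissions. Hypoxia in med25-1 gave 961, against 175, 1926 with DESeq2, 1483 and 323 to 1841. The genotypes gave 3115 under control conditions, against 5177 with only the groups compared, 6774 with voom and 1285 to 5027 in single omissions, and 3933 under hypoxia, against 1819 with only the groups compared and 2214 to 5124. The interaction gave 0, against 16 with DESeq2 and 1 with both libraries left out. With 2 reads per wild-type group, BIP3 is limited by depth.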

Other observations

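The floral homeotic gene PI, one of 6 floral markers checked as a sign of other tissue, differed between groups. It stood at 0.879 ± 0.0851 CPM in wild-type controls and 5.66 ± 1.48 under hypoxia (SD, n = 3), and at 0.312 ± 0.0539 and 1.74 ± 0.824 CPM in med25-1. PI was higher under hypoxia in wild type (log2 2.67 ± 0.34, edgeR adjusted p = 6.4e-04) and in med25-1 (2.52 ± 0.40, edgeR adjusted p = 0.00381), and lower in the med25-1 controls (-1.49 ± 0.42, edgeR adjusted p = 0.0318) and in the med25-1 hypoxia libraries (-1.64 ± 0.32, edgeR adjusted p = 0.00445). The control call was lost without any 1 of the 6 control libraries. Without both libraries that stand apart the genotype differences were -1.54 and -1.37, both called, as a description and no support. The other 5 floral markers stayed below 0.53 CPM in all 12 libraries, LFY with no read, and the summed floral level ran from 0.612 to 7.46 CPM. The seed markers CRU3 and OLEO1 had no read in any library. The part of these levels in the chaperone differences was not tested.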
